A study of Drosophila melanogaster with 8 samples.

Results

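The genes described here are a fixed set of 40 that carry out or control DNA replication and cell division. Of these, 13 act in replication in S phase, 8 govern the G1/S transition and 19 act in G2 and mitosis. They were chosen by name, with earlier results of these data known, and 39 of them were found among the 15682 gene rows by their FlyBase identifiers. The identifier of Orc1 was not among those rows, so Orc1 was not analysed here. Their transcripts were counted in 8 RNA libraries from tumours dissected out of the eye discs of Drosophila melanogaster larvae. In all 8, eyeless-driven FLP recombinase had made GFP-labelled MARCM clones that expressed the oncogenic ras1 allele G12V and were homozygous for the csk allele Q156Stop, which removes a negative regulator of Src. These Ras/Src tumours are mosaics within the disc, and each library was made from pooled dissected tissue. Larvae of the control diet (CD) were fed 0.15 M sucrose and dissected at day 8, which gave 4 libraries. Larvae of the high sucrose diet (HSD) were fed 1.0 M sucrose and dissected at day 14, which gave the other 4. Diet and age therefore cannot be told apart in any comparison below. The labels do not say that the replicates of a diet came from separate cultures, so p-values measure the spread between these samples.

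In every dividing cell the origin recognition complex and the factor encoded by dup load the MCM helicase onto DNA in G1, and geminin blocks loading until the next cycle. E2F proteins, bound to Dp and held back by Rbf, switch on replication genes, while dap encodes an inhibitor of the kinase Cdk2 with Cyclin E. Entry into mitosis turns on Cdk1 with the mitotic cyclins, which the phosphatase String (stg) activates. Exit follows when the anaphase-promoting complex (APC/C) destroys the cyclins with its activators fzy and then fzr. In the larval eye disc, cells divide ahead of and just behind the morphogenetic furrow and then leave the cycle. The set holds both genes that drive the cycle and genes that restrain it or act at exit, such as dap, Rbf and fzr.

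Totals ranged from 11558860 to 19963565 counts per library. The 39 genes were measured well above the floor of the data, with 123 counts the lowest value in any library. They took between 0.518% and 0.572% of the counts of a library. In principal components over all genes tested, CD replicate 1 and HSD replicate 4 stood apart from the other 6 libraries on the second component, so results were also computed without both. The eye disc markers ey and Optix stood at 119 and 111 counts per 1000000 of the scaled library size (CPM) in CD and at 123 and 121 in HSD, while 5 of 8 eye disc markers fell and their summed level went from 2196 to 2424 CPM in CD to 1270 to 1589 CPM in HSD. Markers of further cell types, within the disc (such as photoreceptors) or outside it, moved with diet too. The summed level of 6 neuroblast markers ranged from 1860 to 2253 CPM in CD and from 105 to 222 CPM in HSD, with 5 lower and insc higher. Most of the CD sum was pros, with a mean of 1817 CPM in CD and 33.6 CPM in HSD. The summed level of 8 neuronal markers ranged from 1814 to 2192 CPM and from 90.6 to 157 CPM, with all 8 lower, and that of 7 photoreceptor markers from 480.0 to 518 CPM and from 86.0 to 155 CPM, with all 7 lower. Of 6 glial markers 4 were lower and moody was higher, and the summed level went from 617 to 685 CPM in CD to 495 to 576 CPM in HSD. Of the glial sum nrv2, which was not called, held a mean of 336 CPM in CD and 334 CPM in HSD. Of 6 muscle markers 2 were higher and 3 lower, of 6 fat body markers none was called, of 5 haemocyte markers 1 was lower, and of 6 salivary gland markers 1 was higher, with summed levels that overlapped between diets in all 4 lists. The salivary gland sum ran from 40.2 to 4629 CPM in CD, with Sgs3 at 1756 CPM in replicate 1 and at most 6.43 CPM in the others. The fat body sum ran from 851 to 3388 CPM in HSD, with Lsp2 at 1595.5 CPM in replicate 4 and at most 735 CPM in the others. None of these markers was at 0 throughout a diet. In bulk tissue, fewer cells of a type and less RNA per cell cannot be told apart. The part of these cell types in the results below was not tested.

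The study compared tumours of the 2 diets, and the comparison read here is whether the replication genes and the mitotic genes differed with diet, and whether they did so together. The changes were smaller by median than those of all genes tested, which were not matched to these genes in expression level. Of the 39 genes, 9 rose and 8 fell in HSD with an adjusted p under 0.05 by edgeR, and 22 did not pass the threshold. That is 43.6% called, against 52.1% of all 9257 genes tested, of which 25.9% were higher and 26.2% lower. Only Klp61F and dap changed by at least 2-fold on the TMM scale (a scaling of library sizes by the trimmed mean of M values), where 21.7% of all genes tested were called at that size. Under total counts alone fzr passed that size too, at -1.04 on the log2 scale. Under ribosomal protein scaling fzr passed it at -1.25 and Klp61F, at 0.80, did not. The diets did not overlap for 15 of the 39 genes, against 50.5% of all genes tested. The median size of a log2 fold change, whatever its sign, was 0.22 for the 39 genes and 0.45 for all genes.

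**Figure D1:**
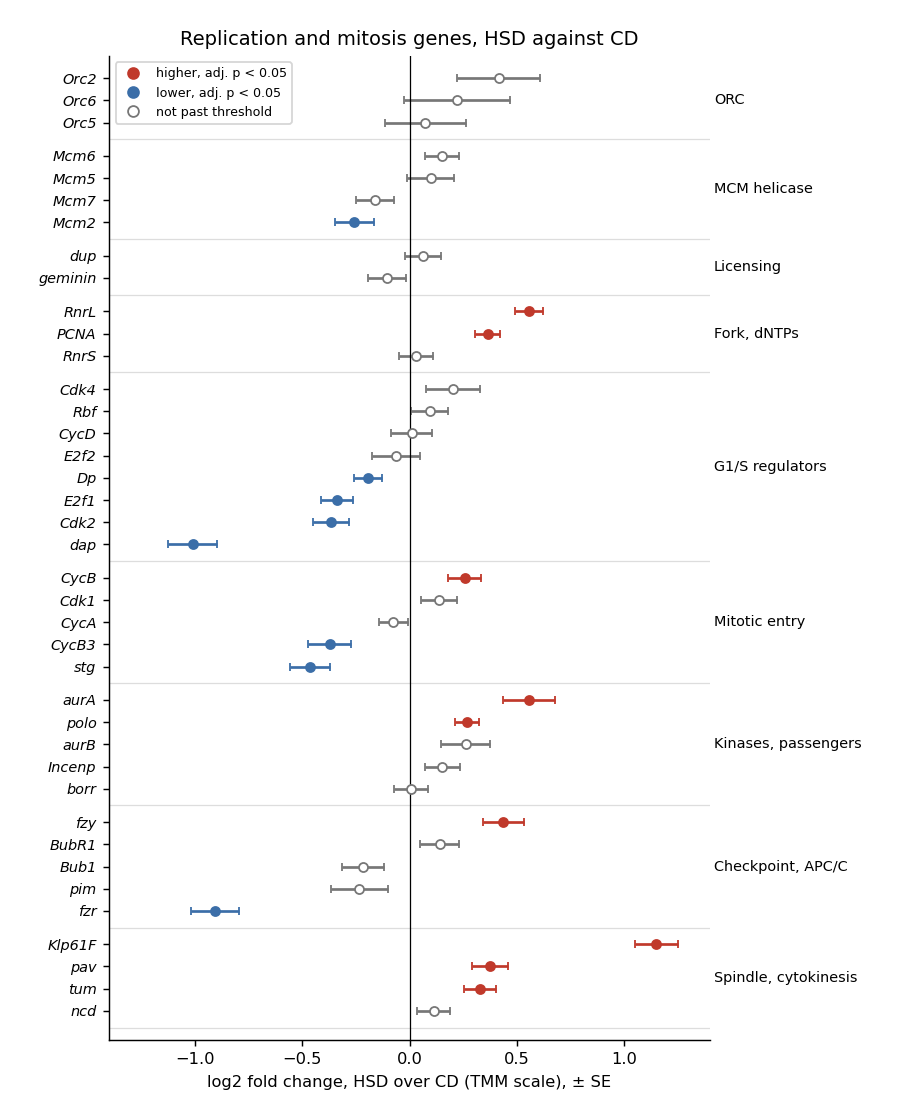
Log2 fold change of each of the 39 genes, HSD over CD on the TMM scale, with its standard error, grouped by role. Filled points passed an adjusted p of 0.05 by edgeR, 9 to the right of 0 and 8 to the left, and Klp61F (1.15) and dap (-1.01) lie farthest out. Under scaling to ribosomal protein genes the points shift left together by about 0.35.

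Among the 39 genes, no difference between the S-phase class and the G2/M class was seen beyond the spread between libraries. Of 12 S-phase genes 2 rose and 1 fell, with a median log2 fold change of 0.09. Of 19 G2/M genes 7 rose and 3 fell, with a median of 0.14. The difference between these medians was -0.06. The wider lists given below stood further apart, with medians of 0.28 for 33 other replication genes and -0.04 for 53 other mitosis genes. That gap was not tested. On class means of log2 CPM, set to 0 in CD, the S-phase class minus the G2/M class had the opposite sign, 0.03 ± 0.03 in HSD against 0 ± 0.12 in CD (SD, n = 4 each), with a pooled SD of 0.09. In single libraries this difference of means lay between -0.14 and 0.12 in CD and between -0.01 and 0.07 in HSD, so that every HSD value fell inside the CD range. The 8 G1/S regulators had a median of -0.13, with 4 lower, none higher and 4 not past the threshold. Their mean log2 CPM lay between -0.22 and -0.19 in HSD and between -0.05 and 0.08 in CD. Single genes of this class ran from -1.01 (dap) to 0.20 (Cdk4) on the log2 scale, with 3 above 0, so dap weighs heavily on the mean. No p is given for these class values because they are scores over chosen genes.

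**Figure D2:**
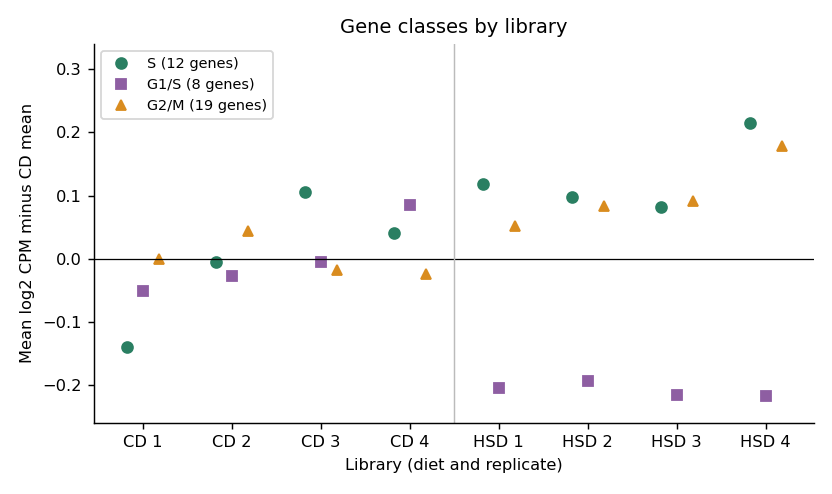
Mean log2 CPM of the S-phase (12 genes), G1/S (8 genes) and G2/M (19 genes) classes in each library, minus the CD mean. The G1/S class lies at -0.22 to -0.19 in the 4 HSD libraries, and the S-phase and G2/M classes lie close to each other in each HSD library on this TMM scale. The G1/S mean includes dap, whose log2 fold change was -1.01.

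Signs depend on the scale, so the shift is given once. Scaling to 77 cytosolic ribosomal protein genes moved the median of all genes to -0.35 and that of the 39 genes to -0.26, with 1 gene higher (Klp61F) and 18 lower. Total counts alone moved the median of all genes to -0.13 and that of the 39 genes to -0.04, with 6 higher and 11 lower. Measured from the median of all genes, no member changed sides under DESeq2 size factors, upper quartile, total counts or ribosomal protein scaling, and none moved by more than 0.02. Changes below are on the TMM scale, where the median of all genes was 0.00, and are thus changes relative to the typical gene.

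**Figure D3:**
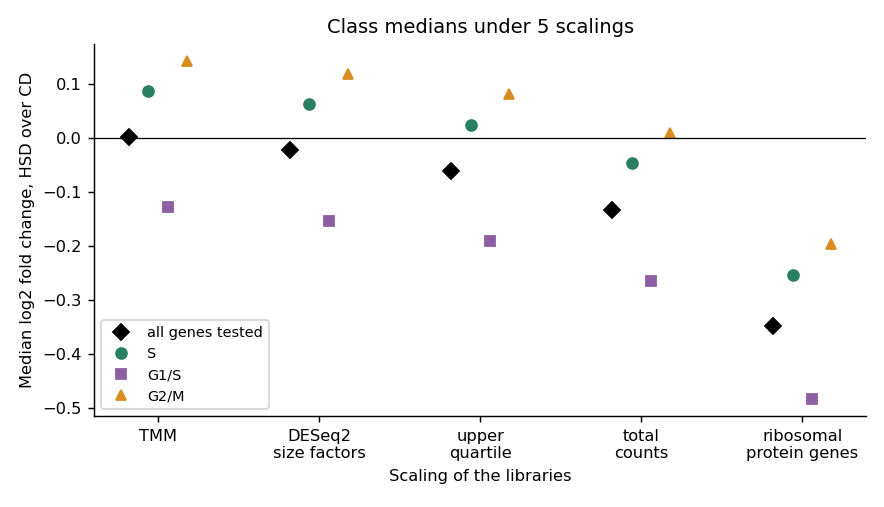
Median log2 fold change of all genes tested and of the 3 classes under 5 ways of scaling the libraries. The medians fall together from TMM to ribosomal protein scaling, where all genes stand at -0.35, S at -0.25, G1/S at -0.48 and G2/M at -0.20, and their order is the same in all 5.

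Few origin and helicase genes were called. Of 3 origin recognition subunits and 4 MCM helicase subunits, only Mcm2 passed the threshold. Mcm2 stood at 115.2, 144, 135 and 137 CPM in CD replicates 1 to 4 and at 116, 99.4, 109 and 121 CPM in HSD, so the diets overlapped. It fell by 0.26 on the log2 scale (SE 0.09, adjusted p = 0.0349 by edgeR), and the call was lost in 6 of the 8 fits that left out 1 library. Mcm7 was at -0.16 and passed, as a fall, under total counts alone (-0.29), ribosomal protein scaling (-0.51) and without HSD replicate 4, with Mcm5 at 0.10 and Mcm6 at 0.15. The gain of Orc2, 0.42 on the log2 scale, had an interval from -0.01 to 0.84 (95%, not adjusted), and Orc5 and Orc6 stood at 0.07 and 0.22. The loading factor dup averaged 69.8 ± 4.33 CPM under CD and 72.9 ± 5.09 CPM under HSD (SD, n = 4 each), and its inhibitor geminin at 124 ± 10.8 and 115.2 ± 10.3 CPM. Neither passed the threshold, and their intervals ran from -0.12 to 0.25 for dup and from -0.30 to 0.09 for geminin. For Mcm7, 2003 of 2451 exonic bases lie opposite an antisense RNA in the BDGP6 annotation, so its counts are uncertain if strand was not used in counting.

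Both S-phase genes that rose belong to the fork and its nucleotide supply. PCNA, the sliding clamp that holds DNA polymerase on its template, stood at 185, 170.1, 190 and 176 CPM in CD and at 235, 229, 234 and 230 CPM in HSD. All 4 HSD libraries lay above all 4 CD libraries, and PCNA rose 1.29-fold (log2 fold change 0.36, SE 0.06, adjusted p = 0.000406 by edgeR). RnrL, the large subunit of the ribonucleotide reductase that makes deoxyribonucleotides, stood at 196, 175, 173 and 186 CPM in CD and at 269, 285, 265 and 255 CPM in HSD. Again the diets were apart, and RnrL rose 1.47-fold (0.56, SE 0.07, adjusted p = 4.05e-05 by edgeR). The small subunit RnrS did not pass the threshold. It averaged 134 ± 10.9 CPM in CD and 137 ± 8.54 CPM in HSD (SD, n = 4 each), with an interval of the log2 fold change from -0.15 to 0.20. PCNA and RnrL lost the threshold under ribosomal protein scaling, at 0.01 and 0.20.

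Among the G1/S regulators, the transcription factor genes E2f1 and Dp, the kinase gene Cdk2 and the kinase inhibitor gene dap fell. The gene dap stood at 135, 160, 169 and 188 CPM in CD and at 80.0, 75.2, 73.9 and 94.8 CPM in HSD. The lowest CD library was above the highest HSD library, and dap fell by 1.01 on the log2 scale (SE 0.11, adjusted p = 3.04e-05 by edgeR), which is 2.02-fold. Fits that left out a library gave log2 fold changes of dap from -1.09 to -0.91. E2f1, the activating E2F, was at 443, 472, 428 and 450 CPM in CD and at 318, 359, 338 and 402 CPM in HSD. It fell by 0.34 (SE 0.08, adjusted p = 0.00328 by edgeR) with no overlap, and HSD replicate 4 was nearest to CD. Cdk2 was at 55.7, 57.2, 60.0 and 63.4 CPM in CD and at 44.7, 44.8, 49.2 and 44.6 CPM in HSD, a fall of 0.37 (SE 0.09, adjusted p = 0.00416 by edgeR). Of its 2299 exonic bases, 1010 lie opposite CG17267 in BDGP6, a gene with a mean of at most 0.121 CPM in either diet. Dp, the partner of both E2F proteins, fell by 0.19 (adjusted p = 0.0259 by edgeR), a call lost in 6 of the 8 fits that left out 1 library.

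The other 4 G1/S regulators did not pass the threshold. CycD and Cdk4, the cyclin and kinase that drive growth and G1 progress, stood at 82.9 ± 7.06 and 68.3 ± 6.64 CPM in CD and at 83.5 ± 8.16 and 78.6 ± 12.8 CPM in HSD. For Cdk4, replicate 4 of HSD held 60.1 CPM against 82.1 CPM or more in the other 3. Without it Cdk4 was called higher, at 0.32 on the log2 scale (adjusted p = 0.0194 by edgeR). The repressive E2f2 was at -0.06 and Rbf, which restrains E2F, at 0.09. Neither passed the threshold. CycE, the partner of Cdk2 and not among the 40, averaged 94.1 ± 4.08 CPM under CD and 98.3 ± 8.57 CPM under HSD (SD, n = 4 each), and its log2 fold change of 0.06 did not pass either.

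**Figure D4:**
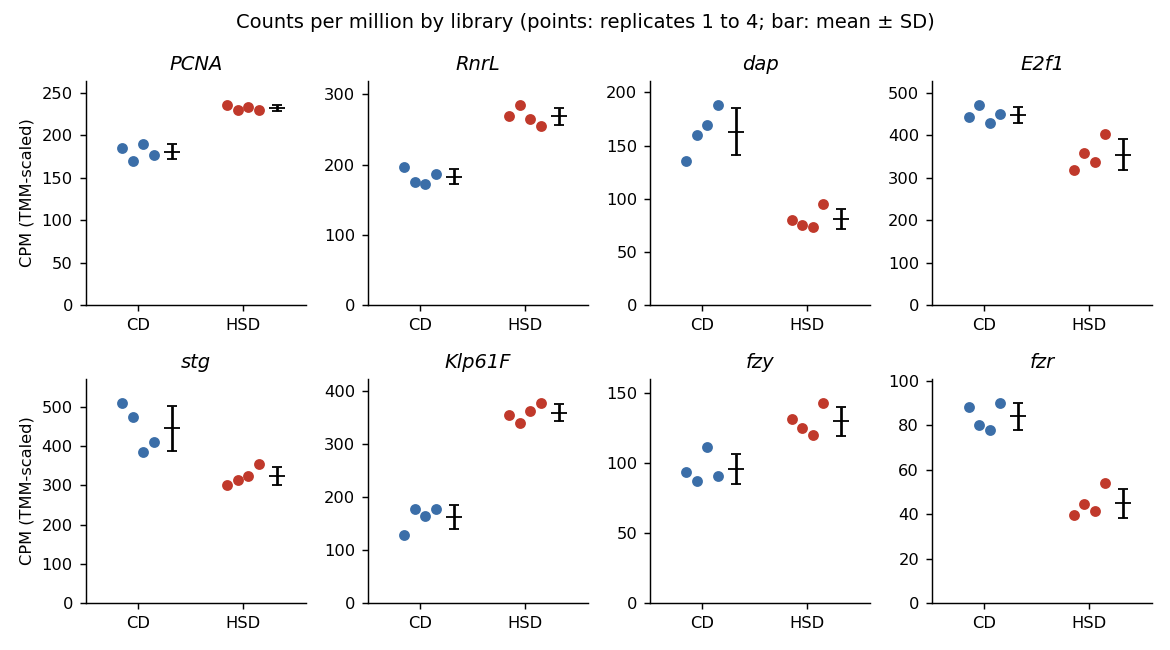
CPM in each library for 8 genes, with replicates 1 to 4 as points from left to right and the mean ± SD beside them. PCNA, RnrL, Klp61F and fzy are higher and dap, E2f1, stg and fzr lower in HSD, with no overlap between diets for any of the 8 on the TMM scale.

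The genes of mitotic entry went different ways. The phosphatase gene stg, which is transcribed in pulses before mitosis, stood at 511, 476, 386 and 411 CPM in CD and at 300.2, 314, 324 and 355 CPM in HSD. The highest HSD library was below the lowest CD library, and stg fell by 0.46 on the log2 scale (SE 0.09, adjusted p = 0.00173 by edgeR). Its target kinase gene Cdk1 was at 118, 106, 122 and 107 CPM in CD and at 123, 123, 139 and 114 CPM in HSD, with a log2 fold change of 0.14 that did not pass (interval -0.05 to 0.32). Without both CD replicate 1 and HSD replicate 4 it was 0.22, with an adjusted p of 0.0445 by edgeR. The diets overlapped for Cdk1.

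Of the 3 mitotic cyclin genes 1 rose, 1 fell and 1 did not pass. CycB stood at 270.4, 274, 236 and 239 CPM in CD and at 312, 323, 313 and 271 CPM in HSD. The HSD value of replicate 4 lay among the CD values. CycB rose by 0.26 (SE 0.08, adjusted p = 0.0169 by edgeR), lost the threshold under total counts alone (0.12) and had the opposite sign under ribosomal protein scaling (-0.10). CycB3 stood at 94.0, 122, 102 and 99.9 CPM in CD and at 70.3, 85.8, 83.2 and 83.7 CPM in HSD. There was no overlap, and CycB3 fell by 0.37 (SE 0.10, adjusted p = 0.00979 by edgeR). CycA, which acts in S phase and early mitosis, averaged 294 ± 17.6 CPM under CD and 280 ± 14.7 CPM under HSD (SD, n = 4 each), which did not pass, but passed as a fall when scaled to total counts (-0.21) or to ribosomal protein genes (-0.42).

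Of the mitotic kinases, polo and aurA rose. The gene polo, which acts at centrosomes, kinetochores and the midzone, stood at 317, 324, 323 and 328 CPM in CD and at 362, 399, 388 and 408 CPM in HSD. It rose by 0.27 (SE 0.06, adjusted p = 0.00220 by edgeR) with no overlap, lost the threshold under total counts alone (0.13) and stood at -0.08 under ribosomal protein scaling. The centrosomal kinase gene aurA stood at 32.6, 32.3, 25.2 and 30.9 CPM in CD and at 43.4, 43.2, 40.1 and 51.3 CPM in HSD, a 1.47-fold rise (0.56, SE 0.12, adjusted p = 0.00284 by edgeR) with no overlap. Under ribosomal protein scaling aurA stood at 0.21 and was not called. Of the 1577 exonic bases of aurA, 153 lie opposite CG12213 in BDGP6, which had more counts than aurA, 79.8 CPM in CD and 71.3 CPM in HSD, and was not called. The chromosomal passenger complex, which corrects attachments of chromosomes to the spindle, was not called in any of its 3 subunits among the 39 genes, nor in Det, the gene of the remaining subunit, from the wider lists (0.04). Its kinase gene aurB was at 0.26 with an interval from 0.01 to 0.52 and an adjusted p of 0.0809 by edgeR, and was called higher without HSD replicate 2 (0.34, adjusted p = 0.025 by edgeR). Incenp was at 0.15 and borr at 0.01.

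The 2 activators of the APC/C moved in opposite directions. The gene fzy, which brings the APC/C to its targets in mitosis, stood at 93.7, 87.2, 112 and 91.1 CPM in CD and at 132, 125, 120.0 and 143 CPM in HSD. It rose by 0.44 (SE 0.09, adjusted p = 0.00263 by edgeR), and under ribosomal protein scaling it stood at 0.10 and was not called. The gene fzr, which takes over at mitotic exit, keeps cyclins low in G1 and is needed in cells that replicate without dividing, stood at 88.1, 79.9, 77.99 and 90.2 CPM in CD and at 39.5, 44.5, 41.4 and 53.9 CPM in HSD. It fell by 0.91 (SE 0.11, adjusted p = 5.33e-05 by edgeR), the second largest fall of the 39 genes, and by at least 0.84 in every fit that left out a library. The diets did not overlap for either gene. Of the 1996 exonic bases of fzy, 62 lie opposite cact in BDGP6 (117 CPM in CD and 125 CPM in HSD, not called), and fzr has no such partner. The spindle checkpoint kinases BubR1 and Bub1 were at 0.14 and -0.22 and the securin gene pim, whose product holds separase in check, at -0.23, and none of the 3 passed the threshold. Bub1 passed without CD replicate 3 (-0.26, adjusted p = 0.0329 by edgeR), under upper quartile (-0.28), total counts alone (-0.35) and ribosomal protein scaling (-0.57), and with at least 10 counts required in every library (-0.26).

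On the TMM scale the largest change among the 39 was that of a spindle motor, while dap changed more under total counts alone (-1.14 against 1.02) and dap and fzr did under ribosomal protein scaling (-1.35 and -1.25 against 0.80). Klp61F encodes the bipolar kinesin that slides spindle microtubules apart. It stood at 129, 177, 164 and 177 CPM in CD and at 356, 340, 363 and 378 CPM in HSD, so that the diets lay far apart. Klp61F rose 2.22-fold (log2 fold change 1.15, SE 0.10, adjusted p = 4.16e-06 by edgeR), and it was the 1 gene of the 39 that was higher under ribosomal protein scaling (0.80). In BDGP6, 424 of its 3871 exonic bases lie opposite the gene galene, which had a mean of 0.899 CPM in CD and 1.28 CPM in HSD.

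The gene pair pav and tum encodes centralspindlin, the complex that bundles midzone microtubules for cytokinesis, and both rose. The kinesin gene pav stood at 147, 159, 158 and 130 CPM in CD and at 179, 207, 185 and 199 CPM in HSD, a rise of 0.37 (SE 0.08, adjusted p = 0.00291 by edgeR). Under ribosomal protein scaling pav stood at 0.03 and was not called. Its partner tum stood at 142, 156.3, 125 and 143 CPM in CD and at 177, 181, 178 and 176 CPM in HSD, a rise of 0.33 (SE 0.07, adjusted p = 0.00342 by edgeR) that became 0.19 and was not called under total counts alone and had the opposite sign (-0.02) under ribosomal protein scaling. Both had no overlap between diets. The minus-end kinesin gene ncd was at 0.11 and did not pass.

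Ratios of 2 genes within a library are free of any scaling of that library, and 3 were computed, chosen after the values were seen. On the log2 scale fzy to fzr ranged from 0.02 to 0.52 in CD and from 1.41 to 1.74 in HSD. CycB to CycB3 ranged from 1.16 to 1.52 and from 1.70 to 2.15. RnrL to RnrS ranged from 0.30 to 0.61 and from 0.88 to 1.11. No ratio overlapped between diets, which shows unequal change within each pair and not which gene of it moved. For fzy to fzr this followed from both genes lacking overlap in opposite directions. Other pairs were not computed for comparison.

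**Figure D5:**
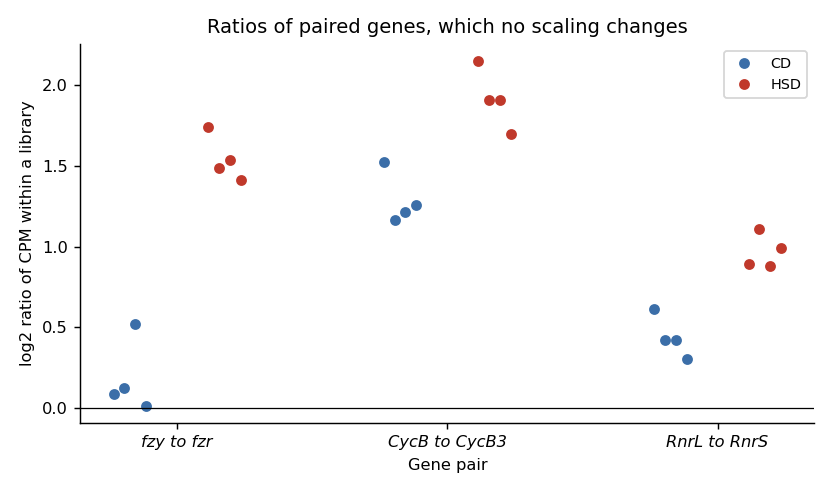
Log2 ratio of the CPM of 2 genes in each library, CD in blue and HSD in red, for 3 pairs. In each pair all 4 HSD libraries lie above all 4 CD libraries, most widely for fzy to fzr (at most 0.52 in CD and at least 1.41 in HSD).

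Set against exon length, PCNA had the highest level of the 39 genes in both diets, at 168 CPM per kb in CD and 217 CPM per kb in HSD. The gene stg came next in CD, at 146 CPM per kb against 106 in HSD, with geminin at 117 and 109, polo at 108 and 131 and Cdk1 at 105 and 115.1 CPM per kb. The 4 lowest in CD were Orc6, Orc2, Bub1 and Orc5, between 11.4 and 13.2 CPM per kb, and the 4 lowest in HSD were Bub1, Orc6, Orc5 and fzr, between 10.9 and 16.1 CPM per kb. Klp61F went from rank 23 to rank 9 of the 39 by this level, and fzr from 28 to 36. Exon lengths came from BDGP6, not from the dm3 build that was counted.

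Where no call was made, the intervals limited the size of a missed change only loosely. For 18 of the 22 genes not called, the 95% interval of the log2 fold change, not adjusted for the number of genes, lay within 0.5 of 0 on both sides. The widest was that of Orc6, from -0.33 to 0.77, at 11.1 CPM in CD. A bound of 0.5 is wider than the median size of a change among the 39 genes, 0.22, and than called changes such as that of PCNA (0.36). That these genes did not differ is not shown by this.

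Other genes of the pathway were read from 3 further lists, set by function. Of 33 other replication genes tested, 12 rose and 2 fell, with a median log2 fold change of 0.28. Psf2, a subunit of the GINS complex of the helicase, rose by 0.90 from 8.08 ± 1.49 to 15.1 ± 2.65 CPM (SD, n = 4 each). The thymidylate synthase gene Ts rose by 0.63 and the licensing gene Cdc6 by 0.59. Of 53 other mitosis genes tested, 8 rose and 11 fell, with a median of -0.04. The gene shtd, which encodes the large scaffold subunit of the APC/C, rose by 0.75, while Rca1, an inhibitor of the APC/C with fzr, fell by 0.67 and the centromere gene cal1 by 0.67. Of 11 other E2F and G1/S genes, 2 rose and 1 fell: CycG by 0.53 and the growth regulator Myc by 0.37, and Myb at -0.24, a call lost without CD replicate 2, CD replicate 4 or HSD replicate 1 (adjusted p = 0.0536, 0.0888 and 0.0518 by edgeR). By list, 42.4% of the replication, 35.8% of the mitosis and 27.3% of the E2F and G1/S genes were called, against 52.1% of all genes tested. Called replication genes mostly rose, while called mitosis genes went both ways, so their sum hides this. Joined over the 3 lists, 22 of 97 rose and 14 fell, beside the 25.9% and 26.2% of all genes tested. Those numbers changed with the scale, to 14 and 22 under total counts alone and to 1 and 36 under ribosomal protein scaling. Psf2, Ts, Cdc6, CycG and Myc were not called under the latter.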

How the data were processed

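The deposited values were raw read counts per gene from 8 stranded mRNA libraries. Per the labels and the study's methods, paired reads were base-called with CASAVA 1.8.4, trimmed by the authors (Trim Galore 0.4.4), mapped on dm3 (TopHat2 2.0.11, Ensembl transcripts) and assigned to genes by featureCounts. The strand setting was not given in the sources used here, so counts of genes with antisense overlap are uncertain. Symbols were matched for 15002 of 15682 identifiers. Gene structures came from BDGP6, and no coordinate was converted.

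The diet effect was fitted in R 4.3.3 by the quasi-likelihood test of edgeR 4.0.16 (two-sided, TMM) on the 9257 genes kept by filterByExpr, and p-values were adjusted over these by Benjamini-Hochberg. SE was the log2 fold change divided by the square root of F. No replicate pair agreed within sampling noise by chi-square. CPM were counts per 1000000 of the TMM-scaled library size. Log2 CPM used a prior count of 2. Class medians and ratios have no test.

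All 39 genes could be named. Values in every library were given for called genes with 1 of the 3 largest rises or falls of their role group and for PCNA, E2f1, stg, CycB, Cdk1 and dap, and at most 3 called genes of any other list were named, the largest changes with at least 10 CPM in the higher diet. The members and lists were chosen with earlier results of these data known. CycE, the 3 ratios and the genes under other observations were chosen after values were seen. Alternatives tried were scaling by size factors of DESeq2, by upper quartile, by total counts and by 77 ribosomal protein genes, 2 other filters, DESeq2 1.42.0, limma-voom (limma 3.58.1), an adjusted p under 0.01, each library left out, CD replicate 1 and HSD replicate 4 both left out, replicate number as a block and 2 other class definitions.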

Additional observations from a re-analysis of the deposited data

Results flagged for a closer look

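Within each diet the most extreme library was compared with its neighbour for all 39 genes, 78 groups of 4 libraries, and 4 groups passed Dixon's limit for 95% confidence, where chance gives about 3.9. CycA in CD was lowest in replicate 1, at 268 CPM against 303 CPM in the nearest library (ratio 0.978). Cdk2 in HSD was highest in replicate 3, at 49.2 against 44.8 CPM (ratio 0.952). RnrS in CD was highest in replicate 4, at 151 against 130.5 CPM (ratio 0.88). CycB3 in HSD was lowest in replicate 1, at 70.3 against 83.2 CPM (ratio 0.845).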

How the results depend on the processing

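Of 741 values of the 39 genes under 19 alternatives each, 651 kept their sign and their side of the threshold. The 9 genes called higher stayed between 9 and 10, and the 8 called lower between 6 and 8, when 1 library was left out. Over all genes 4387 to 4999 were called in those fits, 2157 to 2615 higher and 2116 to 2477 lower, and among the other pathway genes 19 to 27 were higher and 8 to 14 lower. The S-phase minus G2/M difference ranged from -0.13 to -0.01 in them, and was -0.10 with the G1/S regulators counted as S-phase genes. Ribosomal protein scaling changed most: 1052 genes higher and 3967 lower over all genes (2400 and 2423 on the TMM scale), 1 and 18 of the 39, and 1 and 36 of the other pathway genes. Signs turned under it for 18 of the 39: the called genes CycB (-0.10), polo (-0.0773) and tum (-0.0225), then CycD (-0.33), RnrS (-0.33), borr (-0.35) and dup (-0.28), which became called as lower, and BubR1, Cdk1, Cdk4, Incenp, Mcm5, Mcm6, Orc5, Orc6, Rbf, aurB and ncd, called in neither fit, where the median of all genes itself stood at -0.35. Total counts alone gave 14 higher and 22 lower among the other pathway genes, and 38.1% of calls higher over all genes against 49.8%. An adjusted p under 0.01 left 7 of those lower. With replicate number as a block, 9 of the 39 were higher and 7 lower, Mcm2 losing its call (adjusted p = 0.0612 by edgeR), and 4609 genes were called in all. Same-numbered libraries did not deviate together (correlations from -0.15 to 0.07 across genes), so the numbers were not taken to pair the samples. Without CD replicate 1 and HSD replicate 4, 11 rose and 8 fell. DESeq2 and limma-voom called the same numbers, 9 higher and 8 lower. Depth limits the origin genes most, at 11.1 to 33.2 CPM.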

Other observations

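Complexes on the wider lists are given here as values only, chosen after the values were seen. Of 4 cohesin genes vtd was listed at 0 and the other 3 fell under TMM, total counts alone and ribosomal protein scaling: SMC3 by 0.56 from 149 ± 23.7 to 101 ± 12.3 CPM, SA1 by 0.46 from 129 ± 12.6 to 94.1 ± 2.74 CPM and SMC1 by 0.39 from 186 ± 36.0 to 141 ± 8.57 CPM (SD, n = 4 each). CD replicate 1 was the lowest CD library for all 3. The diets overlapped for SMC3 and SMC1 but not for SA1. Without CD replicate 1 and HSD replicate 4, SMC3, SA1 and SMC1 stood at -0.73, -0.51 and -0.53. Cohesin holds sister chromatids together. Of 5 condensin genes, which compact mitotic chromosomes, Cap-G (-0.34) and barr (-0.25) fell, and SMC2, glu and Cap-D2 lay between -0.05 and 0.04. Of 7 APC/C genes shtd rose (0.75), ida (-0.40) and Cdc27 (-0.23) fell, and APC4, mr, Cdc16 and Cdc23 lay between -0.22 and 0.06. Of 4 GINS genes only Psf2 (0.90) was called, with Psf1, Psf3 and Sld5 between 0.28 and 0.49.

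The kinase gene Cdc7 and its activator gene chif, which fire loaded origins, fell by 0.53 and 0.29. Of 4 genes of DNA polymerase alpha and primase, which start each new strand, PolA1 (0.52), Prim2 (0.49) and Prim1 (0.38) rose, and PolA2 was at 0.34 with an adjusted p of 0.154 by edgeR. The cytokinesis genes scra (0.47), which encodes anillin, and feo (0.43), a midzone microtubule bundler, rose as pav and tum did. None of these 5 rises was called under ribosomal protein scaling, where they stood between 0.02 and 0.18, and under total counts alone only Prim2 (0.35) and scra (0.33) were called.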
